A study of Mus musculus with 2 samples.

Results

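Ryr2 (ENSMUSG00000021313), the mouse gene of the cardiac ryanodine receptor, had 58 summits in the deposited list, out of 2020 summits in all (2.87%). A summit is the single base where the signal of RNA pulled down with NAT10 peaked over the input RNA. The members are all lines of the list that overlap the gene symbol Ryr2, each summit counted once. They came from 55 peaks, because 1 peak held 3 summits and another held 2. The gene was chosen from these same values, so the number of its summits and their scores are a description and were not tested.

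The RNA came from hearts of wild-type mice injected under the skin at day 1 after birth with AAV9-cTnT-FLAG-NAT10, a virus that makes tagged NAT10 from the cTnT promoter of heart muscle cells, and sacrificed at day 20 after injection. About 60 mg of heart was lysed, 10% of the lysate served as Input, and the rest was pulled down with anti-FLAG beads (RIP). Both groups carried the virus. With 1 library in each group there was no replicate check, and the authors' score per summit describes these libraries alone. The score is a -log10 p or q, and which of them is not given in the sources used here. It can rise with the abundance of an RNA as well as with its enrichment. A pulldown from hearts without FLAG-NAT10 was not analysed here, so RNA that sticks to the beads and RNA held by NAT10 cannot be told apart. Depth is unknown, because the list holds no counts. Of 12 heart muscle marker genes 6 had a summit (Myh6, Tnni3, Tnnc1, Actn2, Ttn and Atp2a2, but not Actc1, Tnnt2, Myl2, Myl3, Pln or Nppa). So did 7 of 24 markers of fibroblasts, endothelial cells, macrophages and mural cells. Over all 21770 protein-coding genes, whether expressed in the heart or not, 919 had a summit (4.22%).

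NAT10 is the enzyme that acetylates cytidine in RNA. The ryanodine receptor is a very large channel in the membrane of the sarcoplasmic reticulum, the calcium store of muscle cells. In heart muscle it opens when calcium enters through the surface membrane, and the calcium it releases starts contraction. Most of the protein faces the cytosol, where kinases and FKBP proteins bind it, and the pore lies at its carboxyl end. The gene is on the minus strand of chromosome 13 and spans 11553099 to 12106945 in GRCm38 (RefSeq), which is 32.9 times the length of its mRNA. In GENCODE M39 the mRNA has 105 exons and 16853 bases, of which 538 are 5′ UTR, 14898 code for 4966 residues and 1414 are 3′ UTR.

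Sequences of 6 exons are shown, to set the strongest summits in short exons beside the weakest. They are the 3 highest and the 3 lowest scores among exons of at most 250 bases with 1 summit. A short exon locates its summit closely without any use of genome coordinates. Each is read 5′ to 3′ on the minus strand of chromosome 13, by exon number, from the GENCODE M39 transcript. Capitals mark matches to 4 repeats of CNN (12 bases), a run of cytidines spaced 3 bases apart, which is the kind of sequence reported around acetylated cytidines in human mRNA. Only the sense strand was searched, and overlapping matches were joined.

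The high exons were exon 69, with a score of 89.9 at 11660220, exon 92, with 80.6 at 11591305, and exon 36, with 66.8 at 11741970 (positions in GRCm38).
exon 69: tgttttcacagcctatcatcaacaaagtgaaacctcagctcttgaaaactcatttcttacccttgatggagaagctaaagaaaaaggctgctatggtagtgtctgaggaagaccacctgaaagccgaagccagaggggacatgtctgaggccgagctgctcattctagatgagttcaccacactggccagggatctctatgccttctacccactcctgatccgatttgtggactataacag
exon 92: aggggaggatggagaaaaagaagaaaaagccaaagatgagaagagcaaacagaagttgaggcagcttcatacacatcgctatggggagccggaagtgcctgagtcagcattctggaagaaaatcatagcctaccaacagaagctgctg
exon 36: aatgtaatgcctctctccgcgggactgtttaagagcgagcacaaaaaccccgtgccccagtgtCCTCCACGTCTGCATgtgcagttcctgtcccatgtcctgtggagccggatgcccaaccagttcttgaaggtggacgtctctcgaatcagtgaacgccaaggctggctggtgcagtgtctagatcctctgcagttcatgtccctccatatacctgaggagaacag

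The low exons were exon 59, with a score of 2.55 at 11688002, exon 81, with 2.85 at 11622991, and exon 97, with 3.24 at 11577841.
exon 59: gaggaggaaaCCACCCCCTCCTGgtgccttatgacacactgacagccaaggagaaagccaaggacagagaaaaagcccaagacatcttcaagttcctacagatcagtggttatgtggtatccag
exon 81: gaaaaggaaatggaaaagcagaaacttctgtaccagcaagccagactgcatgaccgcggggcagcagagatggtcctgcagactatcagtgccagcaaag
exon 97: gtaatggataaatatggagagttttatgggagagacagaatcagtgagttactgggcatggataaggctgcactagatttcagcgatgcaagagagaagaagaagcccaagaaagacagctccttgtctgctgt

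The motif was present in 1 of the 3 high exons (exon 36) and in 1 of the 3 low exons (exon 59), with 2 overlapping matches in each. It was absent from exon 69, although 61.2% of all windows of that length in the Ryr2 coding sequence hold a match, and 55.0% of windows of that length in the canonical mRNAs of all protein-coding genes. For exon 59, the shortest but one of the 6, the corresponding shares were 38.3% and 35.7%. Over the whole mRNA, 26 of the 49 exons with a coding summit held a match (53.1%), against 17 of the 56 exons without (30.4%). Exons with a summit were longer, and per kilobase they held 7.58 matches (75 in all) against 8.63 (60 in all) in exons without. Exon 1, whose bases are mostly 5′ UTR and which has a GC content of 75.9%, held 26 of these 60. Without it the density in exons without a summit was 5.34, so that the direction turned, and it was 4.74 when exon 105, which contains the 3′ UTR with its summit, was left out as well. These last values were computed after seeing the data. No exon with a summit was left out in the same way, although exons 37, 94 and 90 held 12, 10 and 9 of the 75 matches. The direction therefore depends on which exons are kept.

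Summits lay along the coding sequence from exon 2 to exon 101, with 1 more in the 3′ UTR. Of the 58 summits, 52 were in coding exons (89.7%, exact 95% interval 78.8 to 96.1, counting error only), 5 in introns (8.62%, 2.86 to 19.0), 1 in the 3′ UTR (1.72%, 0.0436 to 9.24) and 0 in the 5′ UTR. In the list as a whole, 52.2% of summits lay in exons outside UTRs and 36.0% in 3′ UTRs. Genes with many summits were closer to Ryr2. Over the 50 genes with at least 5, pooled and with Ryr2 included, 6.49% of summits were in 3′ UTRs. The titin gene Ttn gave 235 of these pooled summits, with only 2 in its 3′ UTR. Coding exons held 97.0% of summits in Ttn, 96.0% in Cmya5, 95.5% in Pde4dip and 93.3% in Ahnak. Their share was below that of Ryr2 in Dst, Dync1h1 and Myh6 (86.4% each) and in Nrap (75.0%). The 3′ UTR of Ryr2 makes up 8.39% of the mRNA and held 1.89% of the summits that lie on the mRNA. The list names no other gene that overlaps a summit of Ryr2, and the strand of the reads is not given. Every summit lay closer to the transcription start of another gene than to that of Ryr2, and the list gives Gm47494 as the closest start for 35 of them and Gm47487 for 19.

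Scores ranged from 2.55 to 160, with a median of 14.8 and quartiles of 6.01 and 28.6. The 2020 summits of the list had a median of 12.5 and quartiles of 5.83 and 28.3. Thus 55.2% of Ryr2 summits lay at or above the median of the list, and 25.9% at or above its upper quartile. Its highest summit ranked 42 in the list and the 3′ UTR summit 62.

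The 5′ part of the mRNA, the first of 3 equal parts of 5618 bases, covered exons 1 to 36 and held 19 summits. Exon 1 had none. The most 5′ summit on the mRNA scored 14.6 at 11945937 in exon 2, and exon 3 followed with 29.1. Exons 4 to 8, which together have 303 bases, had none. Scores were low in exon 9 (7.72) and exon 12 (3.53), and exon 15 had 18.7. From exon 19 to exon 23 each exon held 1 summit, and among them exon 20 had the highest score, 41.8 at 11799791, between 3.77 in exon 19 and 16.9 in exon 21.

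The longest unbroken run of exons with a summit was the 7 exons from exon 28 to exon 34. Exon 28 scored 37.5 at 11761330, exon 29 only 4.33, and exon 30 scored 20.5. Exon 31, the longest of these exons with 353 bases, had 65.5 at 11750860. Exons 32 to 34 had scores between 7.87 and 21.5. Exon 35, of 87 bases, had none, and exon 36 had the highest score of the 5′ part. Scores thus varied between adjacent exons of a single mRNA.

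The middle part covered exons 37 to 74 and held 22 summits. Exon 37, of 799 bases, had 2 summits from a single peak, with scores of 27.1 and 23.4. At 252 bases these were the closest neighbours of the gene. Exons 43 to 46 each held 1, and exon 46 led them with 39.7 at 11717034. Exon 50 scored 36.6 at 11708075. Exons 54 to 58 had none over 461 bases, and the next exon, exon 59, had the lowest score of all. Exon 68 scored 40.2 at 11662249, and exon 69, which codes residues 3300 to 3380, had the highest score of the middle part.

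The 3′ part covered exons 75 to 105 and held 12 summits, the fewest and at the same time the 2 strongest. The 3 highest scores of the coding sequence in this part lay in exons 90 and 92. Exon 90, of 1298 bases, codes residues 3987 to 4419 and held 3 summits from a single peak. From 5′ to 3′ they scored 25.0 at 11595716, 49.8 at 11595214 and 160 at 11594849, with 502 and 365 bases between neighbours. The highest of the 3 was thus the one nearest to the 3′ end of the exon. Exon 91, of only 65 bases, scored 22.3, and exon 92 scored 80.6.

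Before and after these exons the 3′ part was sparse. Exons 77 to 80 and exons 82 to 86 had none, exon 81 scored 2.85 and exon 87 scored 4.58. After exon 92 the scores were 11.5 in exon 94, 3.24 in exon 97 and 9.82 in exon 101. The summit of the 3′ UTR scored 127 at 11553300, only 201 bases inside the RefSeq 3′ end of the gene. It was the last along the mRNA and the second highest of the gene.

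**Figure D1:**
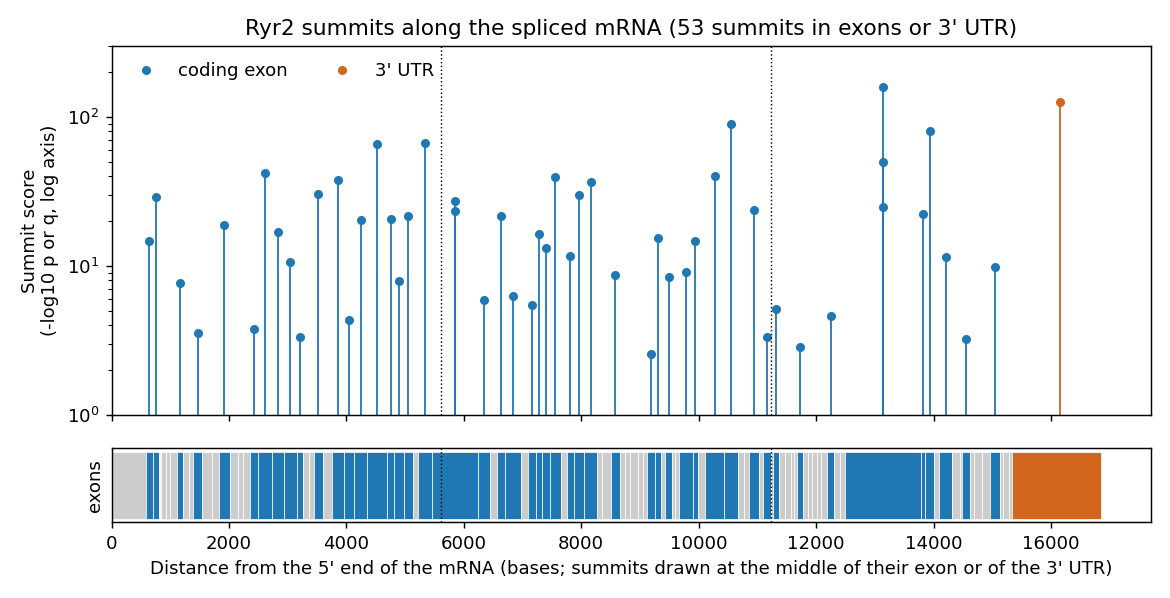
Scores of the 53 Ryr2 summits on the mRNA (vertical, -log10 p or q, log axis) against distance from the 5′ end of the mRNA in bases. Each point is a summit at the middle of its exon (blue) or of the 3′ UTR (orange), the strip shows exons with a summit in colour and those without in grey, and dotted lines divide the mRNA into 3 equal parts with 19, 22 and 12 summits.

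The shares of the 3 parts divide the same 53 summits, so their intervals (counting error only) are not independent. These intervals overlapped, which cannot decide whether the parts differ, and the differences were not tested. The 5′ part held 35.8% of the 53 summits on the mRNA (interval 23.1 to 50.2), the middle part 41.5% (28.1 to 55.9) and the 3′ part 22.6% (12.3 to 36.2). Median scores were 18.7, 15.1 and 16.9. With 1 summit per peak the median of the 3′ part was 10.6, since exon 90 then counts once. Scores of at least 40 were reached by 3 summits of the 5′ part, 2 of the middle part and 4 of the 3′ part. Exons were shorter in the 3′ part, with a median of 97.0 bases against 128 and 123.

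On the chromosome, neighbouring summits were a median of 3810 bases apart, with quartiles of 1871 and 9488. Of the 57 distances, 18 were under 2000 bases and 13 over 10000. The widest, 118553 bases, separated the summit at 12064490 in intron 1 from that of exon 2. Along the mRNA, exons with a summit followed each other at a median of 278 bases from middle to middle. The widest such distance was 1099 bases, from exon 101 to the middle of the 3′ UTR.

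Whether an exon held a summit went with its length. Of 37 exons under 100 bases, 2 held one (5.41%, exact 95% interval 0.661 to 18.2), namely exons 66 and 91. Of 38 exons of 100 to under 150 bases, 20 did (52.6%, 35.8 to 69.0), and of 30 exons of at least 150 bases, 27 did (90.0%, 73.5 to 97.9). The 3 long exons without a coding summit were exon 1, exon 13 with 165 bases, and exon 105, which contains the 3′ UTR with its summit. Exons with a coding summit had a median length of 160 bases and together contained 58.7% of the mRNA. Those without, exon 105 included, had a median of 88.5 bases. An exon with more bases can hold more summits by length alone. Reads of 150 bases were aligned without joining across introns, and what this does to short exons was not tested.

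**Figure D2:**
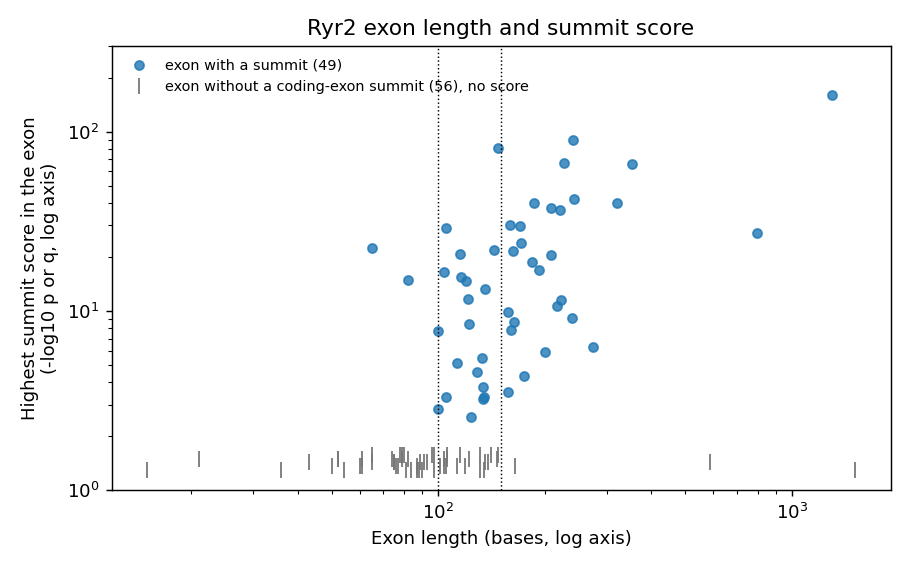
Highest summit score (-log10 p or q, log axis) against exon length in bases (log axis) for the 105 Ryr2 exons. Blue points are the 49 exons with a coding summit, grey ticks at the bottom are the 56 without, which have no score, and dotted lines mark 100 and 150 bases; nearly all exons to the left of 100 bases are grey.

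Scores also tended to be higher in longer exons of this mRNA. Across the 49 exons with a coding summit, Spearman's rank correlation between length and highest score was 0.47. It was 0.42 over 47 exons without exons 37 and 90. These exons share libraries and the mRNA, so the value is a description. Median highest scores were 8.08 in exons of 100 to under 150 bases and 21.5 in exons of at least 150 bases. The 2 exons under 100 bases went against this order, with 14.8 and 22.3. Exon 92 had the highest score of the exons under 150 bases, 80.6 in 148 bases. Exon 3 (29.1), exon 91 (22.3) and exon 40 (21.8) were also under 150 bases and above 21.5. The rank correlation was 0.22 with GC content, 0.07 with the share of C and -0.04 with position along the mRNA.

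GC content was compared in the same way. Exons with a coding summit had a median GC content of 50.0% and those without 46.2%. Within the class of 100 to under 150 bases, where both kinds were common, the medians were 48.5% in 20 exons and 48.2% in 18. The number of summits per kilobase was 2.50 in exon 37 and 2.31 in exon 90, against 3.14 over the whole mRNA. The length of an exon and its GC content were not tested as causes.

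Of the other genes with at least 20 summits, 4 have many exons and are numbered in the list as in GENCODE: Myh6 (alpha myosin heavy chain), Pde4dip (myomegalin, a scaffold), Nrap (a protein of myofibril assembly) and Dync1h1 (the dynein heavy chain). In exons of at least 150 bases, the share with a summit was 71.4% in Pde4dip, 68.8% in Myh6, 57.1% in Nrap and 32.0% in Dync1h1. In exons of 100 to under 150 bases it was 42.9% in Myh6, 33.3% in both Pde4dip and Nrap, and 8.33% in Dync1h1. Under 100 bases it was 0 of 8 in Pde4dip, 0 of 3 in Dync1h1, 2 of 9 in Myh6 and 2 of 8 in Nrap. The share was higher in the longest class than in the shortest in all 5 genes, Ryr2 included. All 5 come from the same libraries and alignment, whose part in this was not tested.

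**Figure D3:**
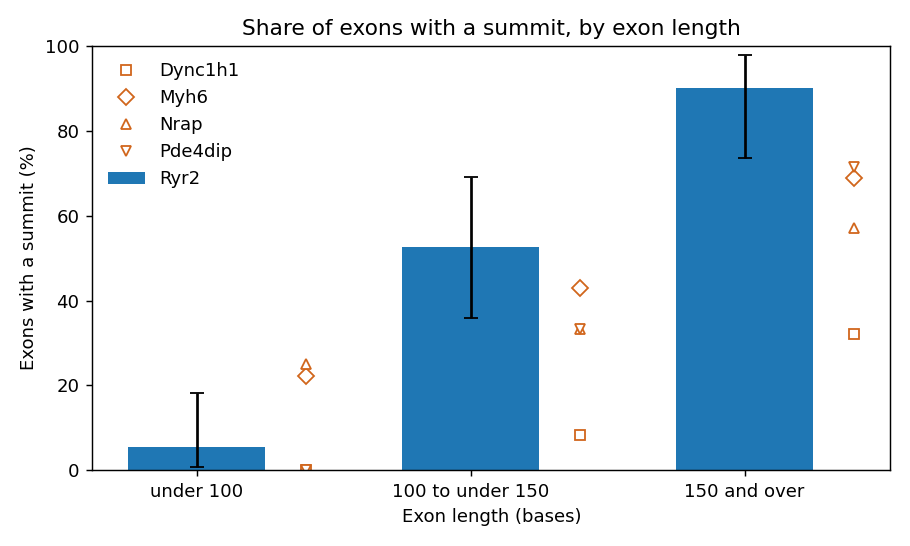
Share of exons with a coding summit (%) in 3 classes of exon length in bases. Bars are Ryr2 with exact 95% intervals (counting error only), at 5.41%, 52.6% and 90.0%, and open symbols are 4 other genes with at least 20 summits, where the longest class also has the highest share.

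Sites of known function were looked up in the translated Ryr2 coding sequence. The stretch around a serine that protein kinase A phosphorylates begins at residue 2804 in exon 56. That exon had no summit, although intron 56 had one with a score of 3.34. The selectivity filter of the pore begins at residue 4823 in exon 101, whose summit scored 9.82.

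The 5 intron summits were weaker than those of exons. Their median score was 3.71 (2.69 to 14.9), against 16.0 (2.55 to 160) in coding exons. Both summits of intron 1 were the strongest of them, with 14.9 at 12064490 and 8.74 at 12065256. These lay 766 bases apart and 42455 and 41689 bases from the RefSeq 5′ end of the gene. The other introns with a summit were intron 16 (2.69), intron 56 (3.34) and intron 80 (3.71). Their source was not tested.

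Ryr2 ranked 2 among protein-coding genes by number of summits, after the titin gene Ttn with 235. The next were Ahnak (a giant scaffold protein) with 30, Cmya5 (myospryn) with 25, Dst (dystonin), Dync1h1, Myh6 and Pde4dip with 22 each, and Nrap with 20. Per kilobase of the canonical mRNA, Ryr2 had 3.14 summits in exons or UTRs, the highest of the 50 genes with at least 5 summits, whose median was 0.68. Myh6 had 3.04, Nrap 2.99, Pde4dip 2.49, Ttn 2.14, Cmya5 2.11, Ahnak 1.63, Dync1h1 1.21 and Dst 0.86. Dync1h1, whose mRNA of 16498 bases is close in length to that of Ryr2, thus had far fewer.

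The rank by density depends on the transcripts used for length. With the union of all annotated exons, 30280 bases for Ryr2, the value was 1.75 per kilobase and the rank 5. By median score Ryr2 ranked 14 among these 50 genes, and by highest score 9. Myh6 had a median score of 48.5 and Ttn 43.4. Of all canonical coding mRNAs 45 are longer than that of Ryr2. Of these 45 genes, 8 had a summit, beside 4.22% of all protein-coding genes.

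**Figure D4:**
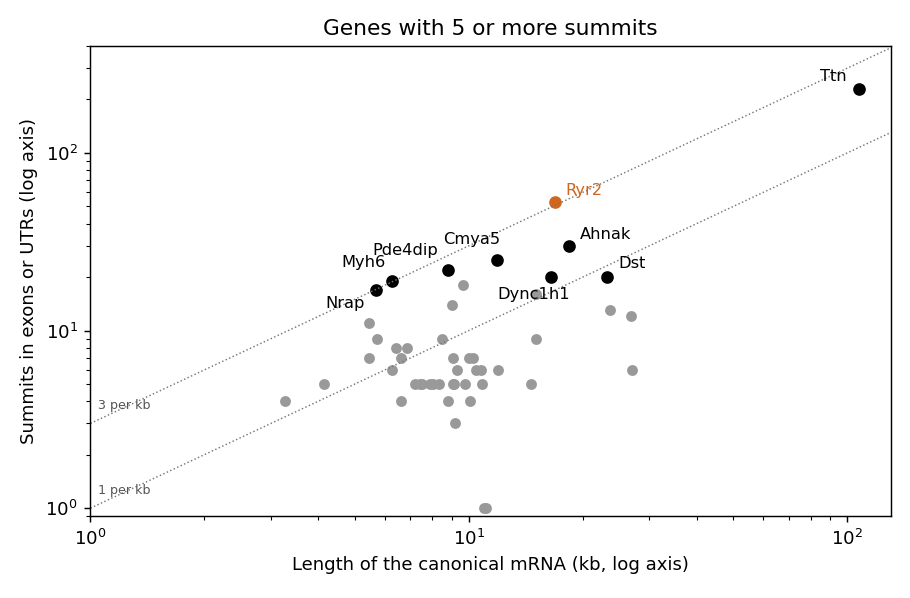
Number of summits in exons or UTRs (log axis) against length of the canonical mRNA in kb (log axis) for the 50 protein-coding genes with at least 5 summits. Genes with at least 20 are named, Ryr2 is orange, and dotted lines mark 1 and 3 summits per kb; Ryr2, Myh6 and Nrap lie at about 3 per kb.

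The other ryanodine receptors, Ryr1 of skeletal muscle and Ryr3, had no summit, and of the related inositol trisphosphate receptors Itpr2 had 1 (9.42 in the 3′ UTR) while Itpr1 and Itpr3 had none. A list of 40 genes holds these receptors and proteins that bind, regulate or work beside the ryanodine receptor. Of these, 14 had a summit (35.0%, exact 95% interval 20.6 to 51.7), beside 4.22% of all 21770 protein-coding genes (919), whether expressed in the heart or not. The list was chosen with earlier results of these data known. The median of the strongest score was 21.9 in the 14 genes, against 14.2 over all genes with a summit. A strongest score can rise with the number of summits of a gene, and these numbers were not matched.

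Among genes of the calcium store and its junction with the surface membrane, Jph2 (junctophilin, which holds both membranes together) had 3 summits, all in the 3′ UTR, and reached 95.2 at 163336637 on chromosome 2. Trdn (triadin, which anchors calsequestrin to the channel) had 5, of which 4 lay in introns 8 and 10 and 1 in exon 3. Its highest score, 79.8, was that of a summit in intron 8, and its median score was 5.45. Casq2 (calsequestrin, the calcium buffer of the store) had 1 in the 3′ UTR with 35.2, and Atp2a2 (the calcium pump that refills the store) had 4 with at most 28.3.

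Among the channels and exchangers of the surface membrane, Slc8a1 (the sodium/calcium exchanger) had 5 summits with at most 11.9. Cacna2d1, a subunit of the calcium channel, had 2 in its 3′ UTR with at most 19.5. Cacna1c, the pore of that channel, had 2 in intron 3 with at most 9.25. Of the kinase anchors and scaffolds, Akap6 had 9 with at most 13.7, Prkar2a (a regulatory subunit of protein kinase A) had 2 with at most 23.2, and Ank2 (ankyrin) had 1 with 20.6. Cmya5 reached 62.3, Cav3 (caveolin) 37.4 and the kinase Speg 1.86.

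The other 26 genes had no summit in the list. They include the FKBP genes Fkbp1a and Fkbp1b, Camk2d, Pln, Asph, Hrc, Sri and S100a1. Their RNA may still be present, because weaker signals were left out of the list by its threshold. Of the 14 genes with a summit, 13 had one in an exon or UTR, and the exception was Cacna1c.

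**Figure D5:**
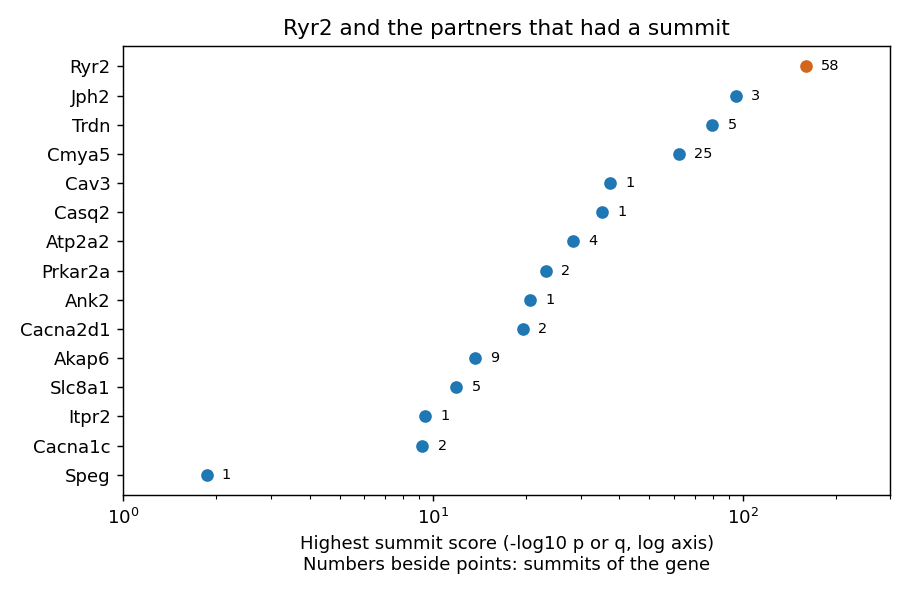
Highest summit score (-log10 p or q, log axis) of Ryr2 (orange) and of the 14 partner genes with a summit (blue), with the number of summits beside each point. Ryr2 has the highest score, 160, and Jph2, Trdn (in an intron) and Cmya5 follow with 95.2, 79.8 and 62.3.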

How the data were processed

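The list of summits was deposited by the authors as a table with 1 line per overlapped gene (2269 lines, 1600 peaks). Per the submitters' processing notes, fastp, BWA 0.7.12, MACS2 2.1.0 and HOMER were used, and the design text says that reads of 150 bases were aligned with BWA mem, which does not join reads across introns. The authors deposited 1 score per summit, a -log10 value whose minimum was 1.32 (1.30 is the -log10 of 0.05). Its column header is a spreadsheet error. The notes name GRCm39, but 98.9% of 1914 lines lay inside their gene in GRCm38 (RefSeq) and 28.5% of 2140 in GRCm39 (GENCODE M39). All 58 Ryr2 summits lay inside the GRCm38 gene, and 0 of 52 exon summits in their exon on GRCm39. Positions are therefore given as GRCm38, and none was converted.

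Exon numbers came from the table. GENCODE M39 (canonical transcripts) supplied exon lengths and sequence by exon number. All 1326 pairs of Ryr2 exon summits lay at distances that the GENCODE exons of those numbers allow, so the numbering was taken as shared. The same check passed for Ahnak, Cmya5, Myh6, Pde4dip, Nrap and Dync1h1, but only 24.8% of pairs passed in Ttn and 2.92% in Dst, whose exons are not compared. Inside an exon the position on the mRNA was not resolved, and the middle was used. Summits of the whole list were placed in 1 region each, in the order exon, 3′ UTR, 5′ UTR, intron.

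Shares have exact (Clopper-Pearson) 95% intervals from scipy 1.17.1. No p-value was computed, since each group had 1 library. Functions were tested on simulated exons. Some genes and sites that were looked up are not reported here. The gene, the partner list, the marker lists and the rules were chosen with earlier results of these data known. Named genes were Ryr2, genes with at least 20 summits, partners with a summit and the receptor paralogs. Named summits were the 10 highest and 3 lowest scores, the closest and farthest pairs and the first and last, and others were named after their values were seen, to describe the mRNA in order. The alternatives were higher score thresholds, merging within 200 bases, 1 summit per peak, equal parts by exon number and other transcript lengths. The count without introns and the closest transcription start were added after seeing the data.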

Additional observations from a re-analysis of the deposited data

How the results depend on the processing

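Of 58 alternative values, 41 stayed within 1.5 times the reported value (for shares, within its interval) and 17 did not. Some of the 41 could not change. Leaving out intron summits cannot alter the values per kilobase, by part of the mRNA or by exon length. Taking 1 summit per peak cannot alter the exon lengths, since each peak with several summits lay in 1 exon. At or above the median score of the list (12.5), Ryr2 had 32 summits, 1.84 per kilobase, with a median score of 65.2 in the 3′ part of the mRNA. At or above the upper quartile (28.3) these values were 15, 0.89 and 104, the median distance between neighbours was 10815 bases, and 5 partner genes had a summit. Such limits leave fewer summits and raise medians by construction. With 1 summit per peak the median of the 3′ part was 10.6. Without intron summits, coding exons held 98.1%. Per kilobase of all annotated exons the density was 1.75. Assigned by the closest transcription start, an alternative chosen after seeing the data, Ryr2 had 0 summits, because the list gives 4 other genes as the closest. Merging within 200 bases could change nothing, since the closest summits lay 252 bases apart, and is not among the 58. Over the alternatives run the share of summits in the 3′ part ranged from 19.4% to 26.7% and the median length of exons with a summit from 160 to 221 bases. No paired analysis was possible because each group had 1 library. The depth behind the scores is unknown.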
